A study of Mus musculus with 9 samples.

Results

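The nuclear-encoded subunits of the mitochondrial respiratory chain and ATP synthase were examined by RNA-seq of mouse liver. The mice ate the same kind of high-fat diet (HFD), kept before use either at freezer temperature in 5 animals (HFDfre) or at fridge temperature in 4 animals (HFDfri). Members were chosen by gene symbol (Nduf, Sdh, Uqcr, Cox and Atp5 names, without pseudogene symbols). Of 33211 genes in the deposited table, 84 had such a symbol and 78 had 10 or more counts in at least 4 libraries. These 78 comprised 37 genes of complex I, 4 of complex II, 8 of complex III, 12 of complex IV and 17 of complex V. The 6 that were left out, Cox4i2, Cox6a2, Cox6b2, Cox7b2, Cox8b and Cox8c, are isoforms known from lung, muscle, fat or testis and had at most 15 counts in any library, with 0 everywhere for Cox7b2 and Cox8c. All 78 members also passed the filter on low counts used for the test.

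Both groups were wild-type mice, of the strain C57BL/6 in the labels and C57BL6/J in the methods. They were males, 8 weeks old when feeding began, and both groups were fed in parallel for 7 weeks. No chow-fed group was among the samples. The labels give no batch or pooling, and 1 library per animal was assumed. A change with storage can therefore be read only as fridge against freezer, and not against a normal diet. The p-values measure the spread between these 9 libraries.

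The respiratory chain sits in the inner membrane of mitochondria. Complex I takes electrons from NADH and complex II takes them from succinate, complex III passes them through cytochrome c to complex IV, and complex IV reduces oxygen to water. Complexes I, III and IV pump protons, and complex V, the ATP synthase, uses the returning protons to make ATP. Hepatocytes are rich in mitochondria because gluconeogenesis, the urea cycle and fatty acid oxidation all depend on this chain. Its subunits are encoded by 2 genomes. The mitochondrial genome encodes 13 of them, while the nuclear genes studied here encode the rest, which are imported as proteins and joined to the core by dedicated assembly factors. By prefix, Ndufa4 was counted with complex I although its product is a subunit of complex IV, and Atp5s and Atp5sl were counted with complex V although they are not subunits of the enzyme.

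Library totals ran from 58614917 to 69353439 counts, of which the 78 members took between 0.963% and 1.21%. Libraries did not all have the same composition. Genes of the mitochondrial genome took 11.4% to 19.8% of the counts in HFDfre and 8.93% to 13.6% in HFDfri, and Gm26924, a locus that resembles ribosomal RNA, took 0.466% to 11.1% over all libraries. Major urinary protein (Mup) genes took 5.12% to 8.94% in HFDfre and 9.17% to 14.4% in HFDfri, without overlap. The part of these shares in the results on the members was not tested beyond the alternative scalings and covariates that were fitted. The summed level of 8 hepatocyte markers was 92291 to 99211 CPM (counts scaled to the library total) in HFDfre and 82981 to 114423 CPM in HFDfri. Ckm and Pvalb of skeletal muscle, Myh6 of heart, Adipoq and Plin1 of fat, and 4 of 6 pancreas markers had 0 counts everywhere. Other markers of these tissues were present: the 6 fat markers summed to 13.5 to 51.7 CPM in HFDfre and 8.42 to 29.0 in HFDfri, the 2 tested (Cfd and Cidea) had a median log2 fold change of -1.81, and neither passed the adjusted threshold. The 5 red blood cell markers summed to 447.1 to 614.2 and 272.9 to 888.8 CPM, and 1 of them, Alas2, passed, higher in HFDfri. The part of these cells in the results on the members was not tested. In bulk tissue, fewer cells of a type and less RNA per cell cannot be told apart.

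None of the 78 members passed an adjusted p of 0.05 in edgeR's quasi-likelihood test, and the smallest adjusted p was 0.0806 for Cox5a. Of all 14220 genes tested, 1.05% passed in either direction and 0.556% were lower. The members nevertheless lay mostly on one side. The fitted log2 fold change (HFDfri minus HFDfre) was below 0 for 69 members and above 0 for 9, where 50.9% of all tested genes were below 0. The median over the members was -0.27, against -0.0068 over all tested genes. An unadjusted p under 0.05 was found for 46 members, 45 of them lower in HFDfri and 1, Cox7a2l, higher. Of all genes, 21.2% reached that threshold, 9.79% lower and 11.4% higher. Limma-voom gave 0 members past the adjusted threshold and DESeq2 gave 8, all lower (Ndufa5, Ndufv3, Ndufa1, Ndufs5, Uqcrb, Cox5a, Cox6c and Atp5j), where DESeq2 called 7.26% of all genes and 3.49% lower.

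One library weighed heavily on these counts. Without HFDfri 1, 28 members passed the adjusted threshold in edgeR, 27 lower and 1 higher (Cox7a2l), and the median was -0.35. In that fit 7.65% of all genes were called, 3.66% lower and 3.99% higher. Leaving out any other library left 0 members called. Calls over all genes then ran from 6 (without HFDfre 3 or HFDfre 5) to 235 (without HFDfri 2). The number of members at an unadjusted p under 0.05 was 18 without HFDfri 2, where 19.4% of all genes had such a p. It was 18 without HFDfri 3 (13.6% of all genes), 24 without HFDfre 1 (16.6%) and 27 without HFDfre 5 (18.1%). The libraries could be ordered by their members: 40 of the 78 had their lowest level in HFDfri 3 and 22 in HFDfri 2, while 27 had their highest level in HFDfre 5, 22 in HFDfre 1 and 16 in HFDfre 4.

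**Figure D1:**
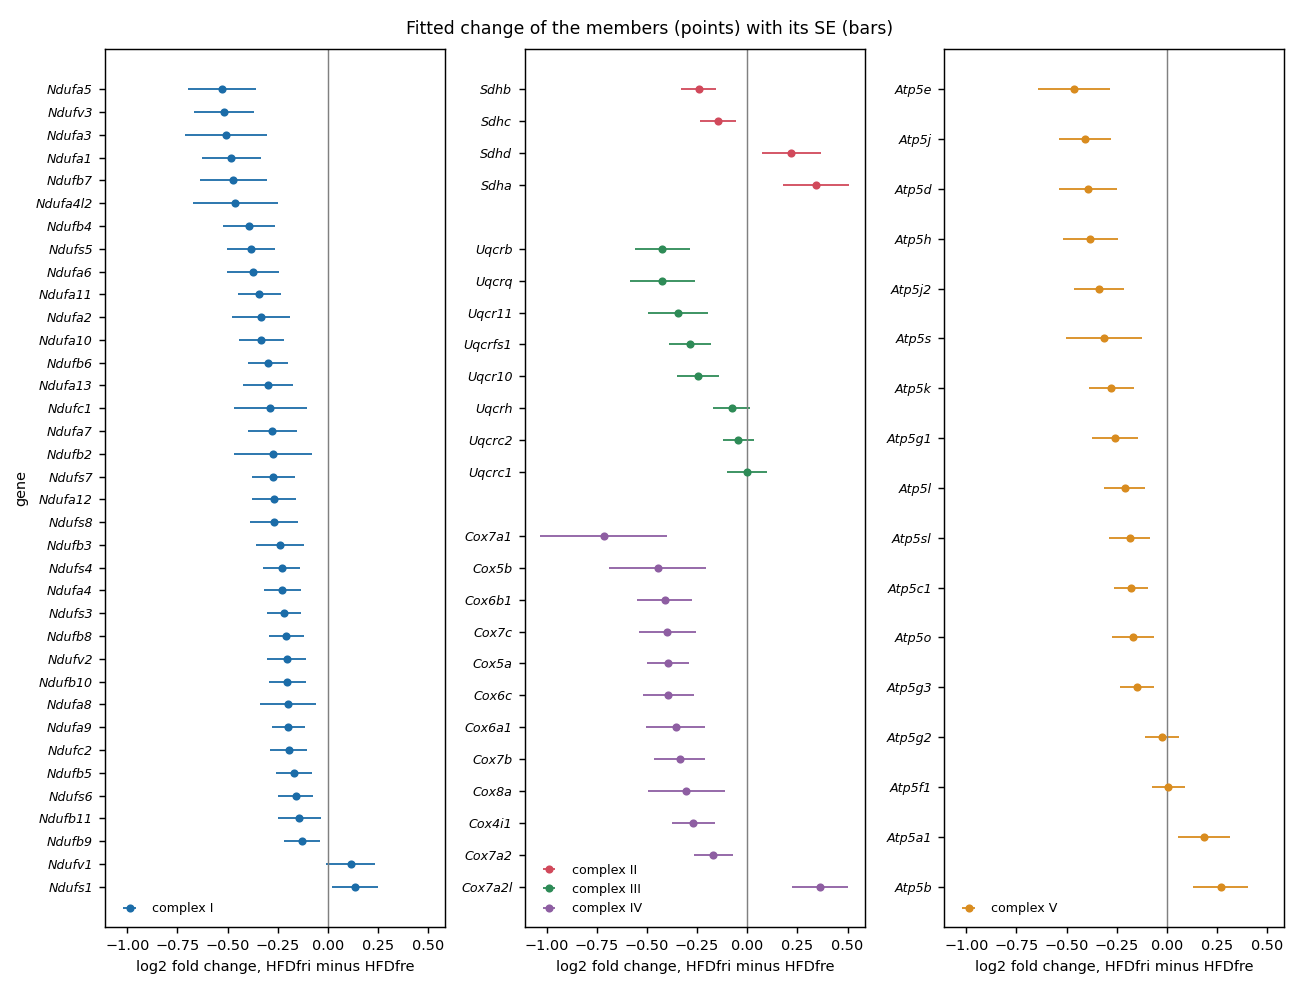
Fitted log2 fold change (HFDfri minus HFDfre, horizontal axis) of the members, with points for the estimate and bars for its SE, grouped by complex. Nearly all members lie left of 0, from -0.72 for Cox7a1, and those to the right are led by Cox7a2l at 0.36 and Sdha at 0.34.

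Most of the members below 0 were small subunits. The 67 members with fewer than 1000 coding bases had a median log2 fold change of -0.28, and 64 of them were below 0. The 11 members with 1000 or more coding bases, which include the large catalytic proteins, had a median of 0.03, with 5 below 0 and 6 above. They ran from -0.52 for Ndufv3 to 0.34 for Sdha. By role, all 30 genes counted as accessory in complex I were below 0 (median -0.28), among them Ndufa4 and its paralog Ndufa4l2, counted there by prefix. Of the 7 core subunits of complex I, 4 were below 0 (median -0.20). Both subunits of the catalytic hexamer of ATP synthase were above 0, and the 3 subunits of its central stalk were below (median -0.39). Genes that are not members showed a like trend, as 73.5% of those with transcripts under 1 kb were below 0 (median -0.21). With an offset for GC content and transcript length, the medians were -0.11 for the accessory and 0.035 for the core genes of complex I. In that fit they were 0.23 for the hexamer and -0.11 for the central stalk.

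Promoter sequences were examined because respiratory genes are known targets of NRF1, of the ETS factor GABP and of YY1. Windows from 250 bases before to 50 after the start, from RefSeq (GRCm38.p6), were found for 66 of the 78 members and 10864 of the tested genes. The NRF1 core GCGCANGCG, on either strand, was in a window of 30.3% of these members and 14.4% of all genes. The ETS core CCGGAAG was in 24.2% of members and 19.1% of genes, and the YY1 core AAGATGGCG in 12.1% and 3.36%. At least 1 of them was present for 54.5% of members and 32.2% of genes. A match is a description of letters and not a bound site. The following 30-base stretches, in the direction of the gene with the motif in capitals, give examples of each core in members named here. The NRF1 and ETS cores were present in members on both sides of 0 (Sdha and Sdhd above, Ndufa5, Cox6b1, Cox6a1 and Atp5e below). The 8 members with a YY1 core, Atp5j among them, were below 0, as were 69 of all 78 members. Their direction therefore does not set them apart from the other members.
Sdha, NRF1 core, chr13:74350276-74350305, minus strand, between annotated genes: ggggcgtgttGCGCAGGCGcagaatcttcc
Sdhd, NRF1 core, chr9:50603909-50603938, minus strand, in an untranslated exon of Timm8b: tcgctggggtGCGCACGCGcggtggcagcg
Sdhd, ETS core on the other strand, chr9:50603877-50603906, minus strand, between annotated genes: ccgtctcctgcCTTCCGGttcacgcttcag
Ndufa5, NRF1 core, chr6:24527697-24527726, minus strand, in an untranslated exon of Ndufa5: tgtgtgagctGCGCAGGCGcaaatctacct
Cox6a1, NRF1 core, chr5:115349056-115349085, minus strand, between annotated genes: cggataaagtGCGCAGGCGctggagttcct
Cox6b1, ETS core on the other strand, chr7:30626124-30626153, minus strand, in an untranslated exon of Cox6b1: tcctctcgcagCTTCCGGccagtcggaatt
Atp5e, ETS core on the other strand, chr2:174464185-174464214, minus strand, between annotated genes: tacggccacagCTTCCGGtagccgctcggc
Atp5j, YY1 core, chr16:84835045-84835074, minus strand, in an untranslated exon of Atp5j and an intron of Gabpa: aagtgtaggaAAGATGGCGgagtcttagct

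In complex I, 34 of 37 genes were below 0 (median -0.27), and 24 of them had an unadjusted p under 0.05. Of all tested genes, 9.79% were lower at that p. With an offset for GC content and transcript length, the median of complex I was -0.070. In that fit 5 of the 37 had an unadjusted p under 0.05, as did 18.7% of all genes. Ndufa5 (ENSMUSG00000023089, chromosome 6, 24518666 to 24528013, GRCm38), an accessory subunit of the arm that faces the matrix, had the lowest fold change of the complex. Its level was 81.6, 60.2, 89.9, 66.4 and 93.9 CPM in HFDfre 1 to 5 and 70.6, 45.9, 44.02 and 57.01 CPM in HFDfri 1 to 4. HFDfri 2, 3 and 4 lay below every HFDfre library, and HFDfri 1 lay among them. The HFDfri mean was 69.4% of the HFDfre mean, with a log2 fold change of -0.53 ± 0.17 (SE) and an adjusted p of 0.116.

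Ndufv3, an accessory subunit bound near the site of NADH oxidation, had 87.7, 59.03, 82.3, 60.6 and 79.2 CPM in HFDfre and 64.3, 47.7, 42.2 and 51.9 CPM in HFDfri. Again HFDfri 1 was the one fridge library inside the freezer range. The log2 fold change was -0.52 ± 0.15, with an adjusted p of 0.101. Ndufa3 and Ndufa1, small membrane-spanning accessory subunits, had log2 fold changes of -0.51 and -0.48, with adjusted p of 0.187 and 0.109. Ndufa4, the most abundant of the genes under this prefix by CPM, had 289.8 ± 19.8 CPM in HFDfre and 247.6 ± 19.7 in HFDfri (SD), and a log2 fold change of -0.23 ± 0.092. Ndufa4l2, a paralog of Ndufa4 known from hypoxia, was barely expressed at 2.06 ± 0.356 and 1.50 ± 0.275 CPM.

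The core subunits of complex I carry its flavin, its iron-sulfur clusters and part of its quinone site. Of these, Ndufs3, Ndufs7, Ndufs8 and Ndufv2 had log2 fold changes of -0.20 to -0.27, and Ndufs1 and Ndufv1 had 0.14 and 0.11. Ndufs1, the largest, holds iron-sulfur clusters on the path of the electrons. It had 61.4, 62.9, 63.6, 71.9 and 70.3 CPM in HFDfre and 56.02, 79.3, 81.4 and 73.5 CPM in HFDfri. Here HFDfri 2, 3 and 4 were above every HFDfre library and HFDfri 1 was below all of them, so the same library that stood high for the small subunits stood low for this large one. The adjusted p was 0.524. Ndufv1, which binds NADH and the flavin, showed a like order among the fridge libraries, with 71.8 CPM in HFDfri 1 and 95.4 to 101 CPM in the other 3.

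Complex II, succinate dehydrogenase, has 4 subunits, all nuclear-encoded, and is also an enzyme of the citric acid cycle. They were split, with Sdhb and Sdhc below 0 and Sdha and Sdhd above (median 0.04). Sdhb (ENSMUSG00000009863, chromosome 4, 140961203 to 140979193), the iron-sulfur subunit, had 248.8, 206.4, 216.5, 213.9 and 239.2 CPM in HFDfre and 195.4, 192.4, 180.2 and 192.4 CPM in HFDfri. Every HFDfri library was below every HFDfre library, which was so in the lower direction for 2 of the 78 members, Sdhb and Cox5a, and for 3.66% of all genes. The log2 fold change was -0.24 ± 0.087, with an adjusted p of 0.150. Sdhc, a membrane anchor, had 154.2 ± 14.3 and 139.4 ± 7.18 CPM and a log2 fold change of -0.15 ± 0.091.

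Sdha (ENSMUSG00000021577, chromosome 13, 74322254 to 74350280), the flavoprotein that oxidizes succinate, had 204.4, 249.3, 184.6, 281.3 and 222.4 CPM in HFDfre and 202.8, 357.6, 326.3 and 271.7 CPM in HFDfri. HFDfri 2 and 3 exceeded all freezer libraries, whereas HFDfri 1 was lower than all but 1 of them. The log2 fold change was 0.34 ± 0.17 and the adjusted p was 0.265. Sdhd, the other membrane anchor, had a log2 fold change of 0.22 ± 0.15 with an adjusted p of 0.425, and both Sdha and Sdhd turned to -0.09 and -0.21 when the mitochondrial share of the library was a covariate.

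In complex III, which moves electrons from ubiquinol to cytochrome c, all 8 genes were below 0 (median -0.27), although Uqcrc1 was at -0.0013. Uqcrq and Uqcrb are small subunits near the quinone-binding membrane core. Uqcrq (chromosome 11, 53427922 to 53430831) had 527.8, 329.9, 417.6, 442.3 and 413.4 CPM in HFDfre and 413.9, 259.3, 268.7 and 329.5 CPM in HFDfri. HFDfri 2, 3 and 4 were below all freezer libraries and HFDfri 1 was not. Its log2 fold change was -0.42 ± 0.16 with an adjusted p of 0.168. Uqcrb had a log2 fold change of -0.42 ± 0.14 with an adjusted p of 0.121. The core proteins Uqcrc1 and Uqcrc2, which build the part that extends into the matrix, had 222.1 ± 24.8 against 221.9 ± 13.7 CPM and 205.1 ± 7.69 against 198.9 ± 6.89 CPM, so that the group means differed by less than the SD of either group. The Rieske iron-sulfur protein Uqcrfs1 was at -0.29 ± 0.11 with an adjusted p of 0.161.

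Complex IV, cytochrome c oxidase, had the lowest median of the 5 complexes at -0.38, with 11 of 12 genes below 0. Cox5a (ENSMUSG00000000088, chromosome 9, 57521274 to 57532426), a nuclear-encoded subunit on the matrix side, had 63.06, 66.8, 66.2, 85.6 and 69.2 CPM in HFDfre and 59.5, 50.6, 50.5 and 52.7 CPM in HFDfri. The groups did not overlap, and the HFDfri mean was 76.0% of the HFDfre mean. The log2 fold change was -0.40 ± 0.10 with an adjusted p of 0.0806, and it was -0.48 with the mitochondrial share as a covariate and -0.21 with an offset for GC content and transcript length.

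Cox6b1, Cox7c and Cox6c, small subunits at the periphery of the enzyme, had log2 fold changes of -0.41, -0.40 and -0.39, with adjusted p of 0.129, 0.147 and 0.118. Cox6a1 and Cox4i1, the forms of subunits 6a and 4 found in liver, had -0.36 and -0.27, with adjusted p of 0.198 and 0.186. Cox5b and Cox8a varied widely within each group. Cox5b, which binds zinc, had 189.3, 152.4, 219.3, 196.6 and 121.8 CPM in HFDfre and 195.5, 75.6, 113.3 and 131.5 CPM in HFDfri, where HFDfre 5 lay below HFDfri 1 and 4. Its adjusted p was 0.314. Cox8a had 161.3 ± 36.8 and 130.6 ± 30.3 CPM, with an adjusted p of 0.394. Cox7a1, the heart and muscle form of subunit 7a, had the lowest fold change of all members (-0.72 ± 0.31), at 0.949 ± 0.193 and 0.575 ± 0.189 CPM, while the liver form Cox7a2 had -0.17 ± 0.097 at 100.3 ± 9.38 and 89.2 ± 8.46 CPM.

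Cox7a2l (ENSMUSG00000024248, chromosome 17, 83501918 to 83517330), a related protein that joins complexes III and IV into supercomplexes, was the exception among the Cox genes. It had 50.05, 51.6, 39, 60.6 and 47.7 CPM in HFDfre and 47.9, 69.5, 70.04 and 68.4 CPM in HFDfri. HFDfri 2, 3 and 4 were above every freezer library, and HFDfri 1 was within their range. The HFDfri mean was 128.6% of the HFDfre mean, the log2 fold change was 0.36 ± 0.14, and the adjusted p was 0.174. With the mitochondrial share as a covariate it was -0.042. The C57BL/6 strains are known to carry a shortened form of this protein.

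**Figure D2:**
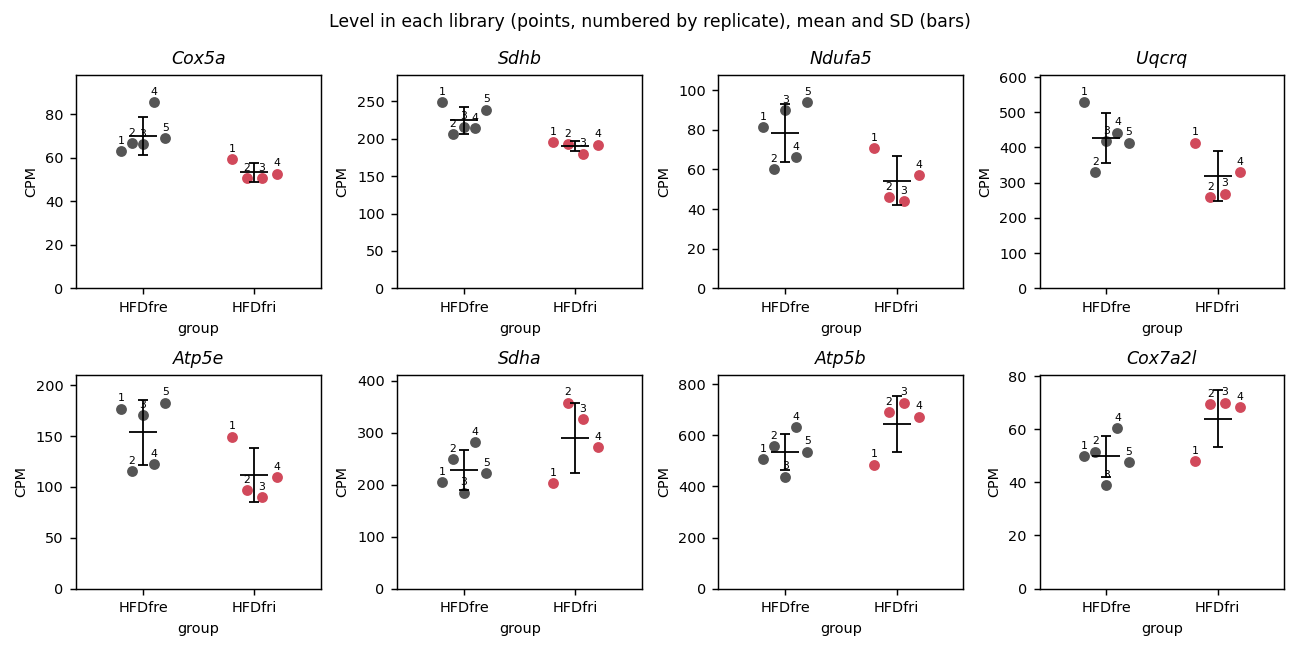
Level in CPM (vertical axes, from 0) of 8 members in each library, with points numbered by replicate and bars for the mean and SD of each group. In Cox5a and Sdhb the groups do not overlap, and in the other 6 HFDfri 1 lies apart from HFDfri 2 to 4, above them in Ndufa5, Uqcrq and Atp5e and below them in Sdha, Atp5b and Cox7a2l.

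In complex V, 14 of 17 genes were below 0 (median -0.21). The catalytic hexamer that makes ATP is built from the products of Atp5a1 and Atp5b. Atp5b (ENSMUSG00000025393, chromosome 10, 128083273 to 128090391) had 507.8, 558.6, 438.9, 633.9 and 536.5 CPM in HFDfre and 485.8, 691.5, 728.2 and 673.6 CPM in HFDfri. As for Sdha and Cox7a2l, HFDfri 2 to 4 were high and HFDfri 1 was not. The log2 fold change was 0.27 ± 0.14 with an adjusted p of 0.291, and Atp5a1 had 0.18 ± 0.13 with an adjusted p of 0.443, and both were below 0 (-0.11 and -0.13) with the mitochondrial share as a covariate.

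Atp5e (chromosome 2, 174461072 to 174464105), a small subunit of the central stalk that turns inside the hexamer, had 177.1, 115.6, 170.8, 122.8 and 183.01 CPM in HFDfre and 149.7, 96.9, 89.7 and 110.03 CPM in HFDfri. HFDfri 2, 3 and 4 were below all freezer libraries, of which HFDfre 2 and 4 were the lowest. Its log2 fold change was -0.46 ± 0.18 with an adjusted p of 0.175. Atp5d of the same stalk and Atp5j and Atp5h of the peripheral stalk, which holds the hexamer still, had -0.39, -0.41 and -0.38, with adjusted p of 0.163, 0.117 and 0.148. Atp5f1, also of the peripheral stalk, was at 0.0079. The genes of the c ring, Atp5g1, Atp5g2 and Atp5g3, had -0.26, -0.02 and -0.15, and these 3 genes encode the same mature protein.

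Levels between genes were compared per length, as CPM per kilobase of transcript. By this measure Uqcrq was the most abundant member at 1052 ± 175.1 in HFDfre and 784.8 ± 175.9 in HFDfri. Cox6a1 (604.4 ± 86.5 and 471.8 ± 95.7) and Cox4i1 (588.8 ± 60.2 and 488.4 ± 50.3) came next and did not differ from each other beyond their spread. The least abundant were Ndufa4l2, Cox7a1, Atp5s and Atp5sl, at 17.3 or less in HFDfre. Within complex V, Atp5b was at 279.3 ± 37.2 and 336.5 ± 56.6 per kilobase and Atp5e at 365.4 ± 76.1 and 265.0 ± 63.6, so that their order was opposite in the 2 groups, with differences near the size of the SDs. In complex II, Sdhb was at 197.0 ± 15.8 and 166.5 ± 5.92 and Sdha at 78.8 ± 13.1 and 99.9 ± 23.4.

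Transcript length went with the difference, in the members and in other genes. Over the 78 members, Spearman's rho of the log2 fold change was 0.50 with transcript length and 0.55 with coding length. Over all tested genes, members included, it was 0.25 with transcript length (14084 genes) and 0.18 with coding length (13067 genes). Genes share the same 9 libraries, and these coefficients are descriptions. Among genes that are not members, the median log2 fold change was -0.21 for 1390 genes under 1 kb, -0.09 for 3345 genes of 1 to 2 kb and 0.03 for 5521 genes of 2 to 4 kb. The medians of the members in the same classes were -0.32 (n = 50), -0.20 (n = 22) and -0.0047 (n = 6). In the shortest class 73.5% of the other genes and 50 of 50 members were below 0, and an unadjusted p under 0.05 in the lower direction was found for 19.6% of the other genes and 35 of the members. With an offset for GC content and transcript length fitted in each library over all genes, the median of the members was -0.07, 55 were below 0 (46.8% of all genes), and 8 had an unadjusted p under 0.05 (18.7% of all genes). These 8 were Cox7a2l, Atp5b and Atp5g2, above 0, and Ndufa5, Ndufv3, Ndufa1, Ndufb4 and Ndufa10, below it. Whether the length trend stems from the RNA, the library preparation or the liver was not tested.

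**Figure D3:**
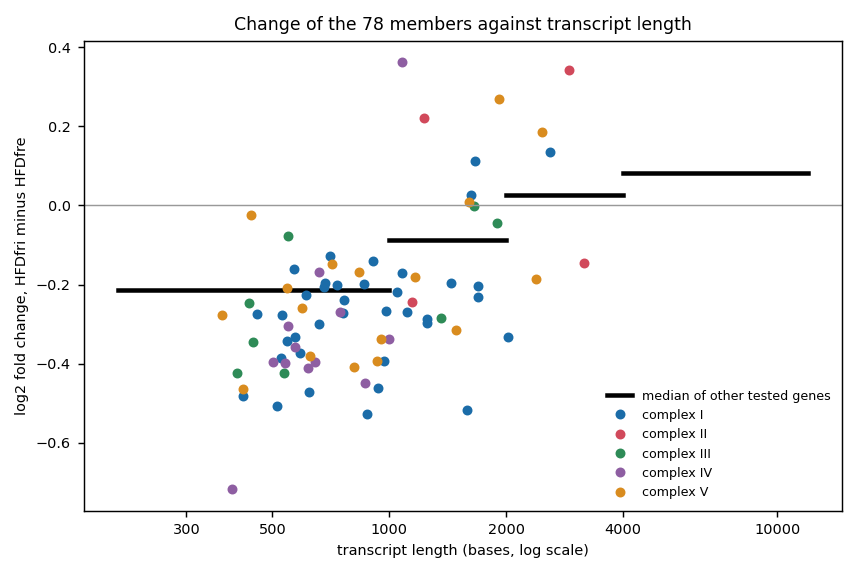
Log2 fold change (HFDfri minus HFDfre, vertical axis) of the 78 members against transcript length in bases (horizontal, log scale), coloured by complex, with black bars for the median of the other tested genes in 4 length classes. The medians of members and of other genes are -0.32 and -0.21 under 1 kb, and -0.0047 and 0.03 at 2 to 4 kb.

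The libraries within a group also differed. The mean log2 CPM of the 67 short members, relative to the mean of the 9 libraries, was 0.23, -0.07, 0.13, 0.13 and 0.21 in HFDfre 1 to 5 and 0.06, -0.27, -0.29 and -0.13 in HFDfri 1 to 4. HFDfri 1 was thus above HFDfre 2. For the 11 long members it was 0.02, -0.05, -0.11, 0.13 and 0.02 in HFDfre and -0.14, 0.05, 0.03 and 0.04 in HFDfri. Short and long members thus had opposite signs in every fridge library and in HFDfre 3, and the same sign in the other freezer libraries. All tested genes under 1 kb showed an order like that of the short members. Their median deviations were 0.21, -0.02, 0.16, 0.04 and 0.15 in HFDfre and 0.11, -0.23, -0.22 and -0.10 in HFDfri. HFDfri 1 also had the highest mitochondrial share of the fridge libraries (13.6%).

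**Figure D4:**
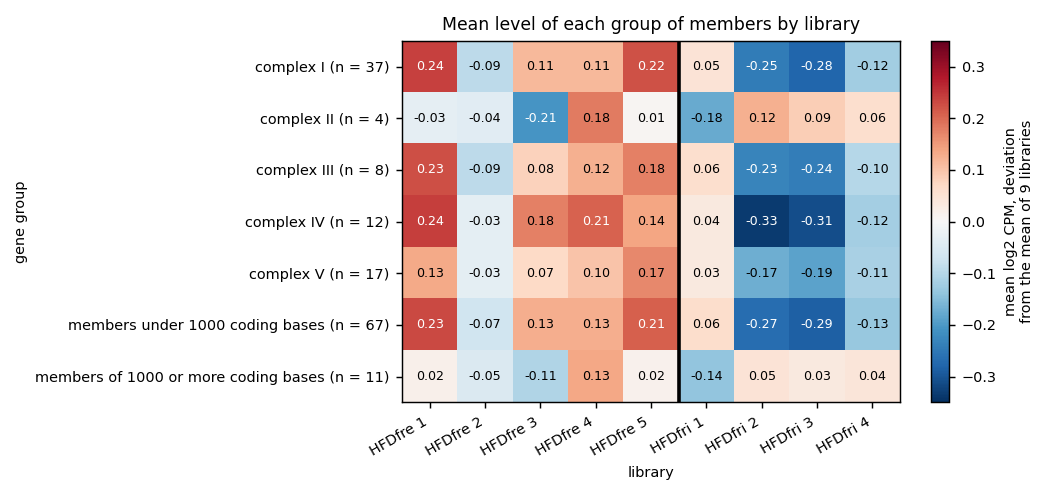
Mean log2 CPM of each complex and of short and long members in the 9 libraries (columns), as the deviation from the mean of all libraries, in colour and digits. Complexes I, III, IV and V are lowest in HFDfri 2 and 3, whereas complex II and the long members are lowest in HFDfre 3 and HFDfri 1.

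The 13 proteins encoded by the mitochondrial genome, the partners of the nuclear subunits in complexes I, III, IV and V, were all below 0, from -0.69 for mt-Nd3 to -0.43 for mt-Nd6 (median -0.54). None passed the adjusted threshold, and 9 had an unadjusted p under 0.05 (9.79% of all tested genes were lower at that p). Their summed CPM was 8.89 to 17.9 times that of the 78 members in HFDfre and 8.29 to 13.7 times in HFDfri, with overlap between the groups. With the mitochondrial share of each library as a covariate, 77 members were below 0 with a median of -0.18, and 4 had an unadjusted p under 0.05 (Ndufb6, Ndufb8, Cox5a and Atp5d). Of all tested genes in that fit, 49.3% were below 0, with a median of 0.0054, and 10.1% had an unadjusted p under 0.05. The share itself was 15.4% ± 3.04 in HFDfre and 10.6% ± 2.07 in HFDfri (SD), so in this fit the effect of the group and of the share can be separated only in part.

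**Figure D5:**
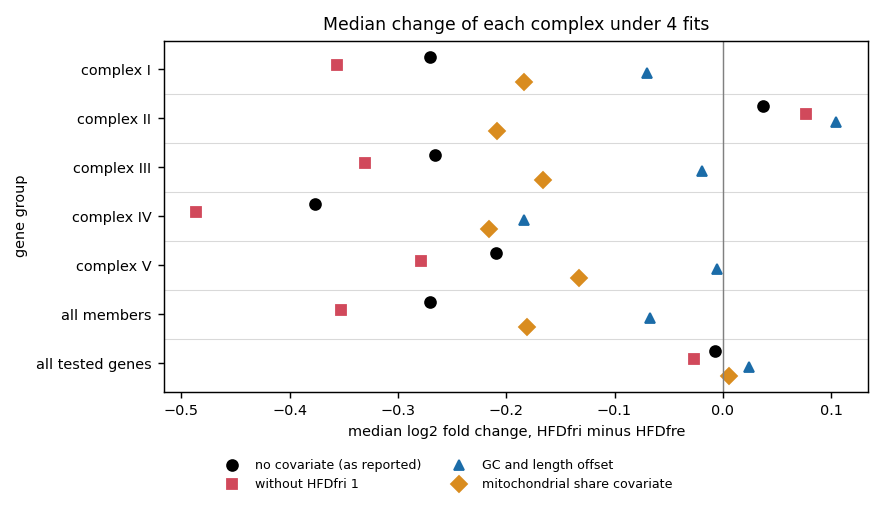
Median log2 fold change (horizontal axis) of each complex, of all members and of all tested genes under 4 fits, with 1 symbol per fit. The median of all members is -0.27 as reported, -0.35 without HFDfri 1, -0.18 with the mitochondrial share as a covariate and -0.07 with the GC and length offset.

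Of 47 assembly factors tested, 28 were below 0 and 19 above (median -0.07), and none passed the adjusted threshold. An unadjusted p under 0.05 was found for 8 lower and 2 higher. Over all tested genes 9.79% were lower and 11.4% higher at that p, 21.2% in either direction. With the GC and length offset the median of the assembly factors was 0.036, with 26 above 0. The lowest were Pet100 and Uqcc2, factors of complexes IV and III, at -0.67 and -0.65 with adjusted p of 0.0878 and 0.0799, and the highest was Taco1, which aids translation of mt-Co1, at 0.70 with an adjusted p of 0.110. Of 16 enzymes of the citric acid cycle, 6 were below 0 and 10 above (median 0.04), and the smallest adjusted p was 0.0585 for Idh2 at -0.49. With the mitochondrial share as a covariate, 1 of the 16 was above 0 and the median was -0.13. Of 15 electron carrier genes, which make or use ubiquinone, cytochrome c and the electron transfer flavoprotein, 9 were below 0 (median -0.11), with Coq10a at -0.59 and an adjusted p of 0.0589. Of 4 further genes that the symbol rule does not reach, the subunits Ndufab1, Usmg5 and Cyc1 were at -0.53, -0.49 and -0.04. Minos1, which is not a subunit of these complexes, was at -0.44.

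The regulators of these genes did not share a direction, as 9 of 16 were above 0 and 7 below, and none passed the adjusted threshold. An unadjusted p under 0.05 was found for 6 above 0 (Ppara, Pprc1, Nrf1, Gabpb2, Tfb2m and Gabpa) and 1 below it, Myc. Myc, a general growth regulator, was at -1.83 ± 0.49 with an adjusted p of 0.0849. Ppara had the highest fold change of the list, 0.82 ± 0.25 with an adjusted p of 0.108. Its level was 21.7 ± 5.57 CPM in HFDfre and 38.4 ± 14.5 in HFDfri. At that unadjusted p, 11.4% of all tested genes were higher and 9.79% lower. Nrf1, the factor that binds the core GCGCANGCG, had 5.79 ± 0.815 CPM in HFDfre and 7.50 ± 0.951 in HFDfri, with 0.37 ± 0.14 on the log2 scale and an adjusted p of 0.166. Gabpa, the DNA-binding part of GABP, had 25.8 ± 2.09 and 30.9 ± 4.59 CPM, with 0.26 ± 0.11 and an adjusted p of 0.210. The coactivators Ppargc1a and Ppargc1b had -0.40 ± 0.23 and -0.19 ± 0.26, with adjusted p of 0.351 and 0.724. Esrra, a nuclear receptor that works with them, had -0.33 ± 0.16 and an adjusted p of 0.253, and Tfam, which packages and transcribes mitochondrial DNA, had -0.04 ± 0.089 and an adjusted p of 0.817.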

How the data were processed

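RNA-seq of liver was analysed in 9 libraries (5 HFDfre, 4 HFDfri), grouped by the labels. The authors extracted RNA with TRIzol and, per the labels, used HISAT2, StringTie and the mm10 build. The library kit is named differently in the labels and in the methods, and the annotation, the use of strand and the handling of reads shared with pseudogenes are not given in the sources used here. Many subunit genes have processed pseudogenes, so their values are uncertain to that extent. The authors deposited whole-number estimated counts for each gene, unscaled, and rounding to integers changed none of them.

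Genes were kept by edgeR's filterByExpr (14220), scaled by TMM and compared without covariates in edgeR 4.0.16 (R 4.3.3; glmQLFTest, its quasi-likelihood test), with Benjamini-Hochberg adjustment over all tested genes and a threshold of 0.05. The SE is the log2 fold change divided by the square root of F. CPM are after TMM, log2 CPM used a prior count of 2, and values after ± on CPM are SDs. The model was tested on simulated data. DESeq2 1.42.0, limma 3.58.1 (voom), other scalings, filters, covariates, a replicate block, offsets (splines of GC and length, 5 degrees of freedom) and leaving out each library were alternatives. The offset that uses the longest transcript and those with GC or length alone were chosen after seeing the data. Coordinates and lengths (shortest well-supported principal transcript) are from GENCODE M21, which held 96.5% of the gene identifiers.

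The members and lists were chosen with earlier results of these data known. Genes named by rule were members past the adjusted threshold (0 here), in each complex the member with the highest CPM and the 2 with the largest and 2 with the smallest log2 fold change, all of complex II, the tissue isoform pairs of complex IV, Ndufa4, Cox7a2l, 6 regulators and list genes past the threshold. Ndufa1, Ndufa3, Ndufs3, Ndufs7, Ndufs8, Ndufv2, Cox5a, Cox6c, Cox7c and other members outside this rule were named after their values were seen, as were single genes of the lists. The values of 1 member, which counts in the totals, are not reported here.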

Additional observations from a re-analysis of the deposited data

Results flagged for a closer look

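In 66 sets of values searched (33 measures in 2 groups), 4 had 1 library standing apart by Dixon's criterion at the 95% level, where chance gives about 1 in 20, or 3.3 here. In all 4 the library was HFDfri 1 and its value was low. The mean log2 CPM of the 11 members with 1000 or more coding bases was 7.27 in HFDfri 1 and 7.44 to 7.46 in HFDfri 2 to 4. Ndufv1 was at a log2 CPM of 6.17 against 6.58 to 6.66, Sdhd at 6.50 against 6.99 to 7.08, and Cox7a2l at 5.58 against 6.10 to 6.13. In the fit without this library 28 members were called, against 0 with it, and 7.65% of all genes were called, against 1.05%. The median of the members was -0.35 without it and -0.27 with it. The part of the 4 low values in these differences was not tested.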

How the results depend on the processing

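The number of members past the adjusted threshold was 0 in every alternative run except DESeq2 (8) and the fit without HFDfri 1 (28). Leaving out 1 library at a time, it ranged from 0 to 28, and the number at an unadjusted p under 0.05 from 18 to 63. The share of all tested genes at that p also varied over these fits, from 13.6% without HFDfri 3 to 25.7% without HFDfri 1. Some of these fits called few of all genes tested, and 0 members there says nothing about the members: 0 with the replicate block, 5 with the mitochondrial share as a covariate, 2 within the libraries under 3% Gm26924, 6 without HFDfre 3, 6 without HFDfre 5 and 10 without HFDfri 3. The number of members at an unadjusted p under 0.05 was 46 as reported, where 21.2% of all genes had such a p. It was 25 with library totals (17.3% of all genes) and 4 with the mitochondrial share as a covariate (10.1%). With the GC and length offset it was 8 (18.7%), with the longest transcript 11 (19.0%), with GC alone 27 (20.7%) and with length alone 7 (19.2%). Within the 5 libraries under 3% Gm26924 (2 HFDfre, 3 HFDfri) it was 18 (9.67%). The cause was not tested. The median of the members was -0.067 with the GC and length offset, -0.071 with the longest transcript and -0.083 with length alone. In these 3 fits the medians were -0.070, -0.095 and -0.086 for complex I, -0.020, -0.0066 and -0.031 for complex III, -0.18, -0.18 and -0.15 for complex IV, and -0.0052, -0.054 and -0.025 for complex V. With the mitochondrial share they were -0.21 for complex II and -0.22 for complex IV.

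Of the named members, several close to 0 changed sign. Uqcrc1 (-0.0013) was at 0.0038 with limma-voom, 0.059 with library totals, 0.071 with the Gm26924 share as a covariate, 0.13 with the offset, 0.14 with the longest transcript, 0.092 with GC alone, 0.086 with length alone and 0.12 within the 5 libraries, and from -0.060 to 0.055 leaving out 1 library. Uqcrc2 was at 0.014 with library totals, 0.0055 with the longest transcript and 0.019 with length alone. Cox7a2 was at 0.023, 0.033 and 0.056 with the offset, the longest transcript and length alone, and Ndufa4 at 0.0098 with length alone. With the mitochondrial share as a covariate, Ndufv1 was at -0.19, Ndufs1 at -0.082, Sdhd at -0.21, Sdha at -0.087, Cox7a2l at -0.042, Atp5a1 at -0.13 and Atp5b at -0.11.

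Libraries with the same replicate number, taken from the sample titles, did not deviate alike, with correlations of -0.14 to 0.08. The column names of the count table hold other numbers, and a pairing by those was not tested. With a replicate block 0 members were called, the median was -0.23 and 40 had an unadjusted p under 0.05, where 0 of all 14220 genes were called and 17.8% had such a p. Depth limits the least expressed members, Cox7a1 (0.949 and 0.575 CPM) and Ndufa4l2 (2.06 and 1.50 CPM).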
